A study of Mus musculus with 8 samples.

Results

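Effector genes of the node and notochord of the mouse gastrula were read in 10 genes: Gal, Cthrc1, Smoc1, Car3, Tmprss2, Cyb561, Prnp, Pim1, Josd2 and the transcription factor Sox9. They were taken by name, and every probe set (the group of short probes that measures one transcript) that the array annotation gives to one of the 10 was read and kept apart from the others. There were 31 such probe sets, 11 of 12422 on the U74Av2 array and 20 of 45037 on the MOE430v2 array, control probe sets left out. U74Av2 carried 8 of the genes, without Cthrc1 and Sox9, and MOE430v2 carried all 10. The study itself had listed 9 of the 10 as reduced on these same arrays, Sox9 being the exception, so a count of members that were lower is not independent evidence of a direction. By the study's Q-PCR on a further pool of each genotype, Gal and Prnp were reduced. Smoc1 was raised there, against its array result.

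The node sits at the distal tip of the gastrulating embryo and gives rise to the notochord, the rod of axial mesoderm that patterns the neural tube and gut. Foxa2, a forkhead transcription factor, is needed for both to form, and T (Brachyury) is the other main regulator of notochord genes. The regulators of these cells are far better known than the proteins through which the cells work, which include secreted peptides, matrix proteins, enzymes, surface proteins and kinases.

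RNA came from the epiblast region of embryos at embryonic day 7.5, with the extra-embryonic part cut away. Foxa2 null embryos were made by tetraploid complementation from Foxa2 null embryonic stem cells, so that the embryo proper was mutant and the visceral endoderm came from the tetraploid wild-type host, and wild-type embryos were of the ICR strain. The labels of the mutant MOE430v2 arrays also give ICR and those of the mutant U74Av2 arrays give no strain, so genotype, embryo origin and possibly strain and sex cannot be told apart. The Foxa2 null pools held 53 and 48 embryos and the wild-type pools held 53 and 50. Each of the 4 extracts was measured once per platform, so 8 arrays stand for 2 pools per genotype, and by the study's staging wild-type pool 2 held fewer head-fold embryos than the others.

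Values are MAS5 signals, a brightness per probe set on a linear scale, and their number of arrays limits their precision. The arrays of a platform had similar medians, between 48 and 52.8 on U74Av2 and between 155 and 165 on MOE430v2. The targeted gene was read first. The Foxa2 probe set 93950_at had signals of 84.0 and 93.8 in Foxa2 null pools, against 165.3 and 270.7 in wild-type pools, and 1422833_at had 510.0 and 538.8 in Foxa2 null pools, against 802.7 and 1139.1 in wild-type pools. Both probe sets were lower in every mutant array than in either wild-type array, and 40.8% and 54.0% of the wild-type signal was left in the mutant pools. Where these probes lie relative to the deleted sequence is not given in the sources used here, and the host visceral endoderm carries an intact Foxa2 gene. Of 14 visceral endoderm markers on MOE430v2, 14 had a log2 difference above 0 (median 0.31), 0 passed the adjusted threshold and 6 were higher at an unadjusted p under 0.05 (6.04% of all probe sets tested). None was at 0 in any array. Their summed signal was 93870 and 74711 in Foxa2 null pools, against 65676 and 74208 in wild-type pools, so Foxa2 null pool 1 stood highest. On U74Av2, 11 of 12 markers were above 0 (median 0.39), 0 passed the adjusted threshold, and 4 were higher and 1 was lower at an unadjusted p under 0.05 (5.01% each of all tested). The sums were 11403 and 7472 in Foxa2 null pools, against 7556 and 7502 in wild-type pools. The part of the host tissue in the results below was not tested.

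In what follows, the share left is the mean signal of the Foxa2 null pools as a percentage of the mean signal of the wild-type pools, with the lowest and highest of the 4 ratios of one mutant to one wild-type array. It is a share of signal and not of transcript, because signal is not proportional to transcript near background. Differences are log2 signal, Foxa2 null minus wild-type, from a limma fit over all probe sets tested, with Benjamini-Hochberg adjusted p-values and a threshold of 0.05. In RNA from whole tissue, fewer cells of a type and less RNA per cell cannot be told apart, which holds for every difference given here.

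**Figure D1:**
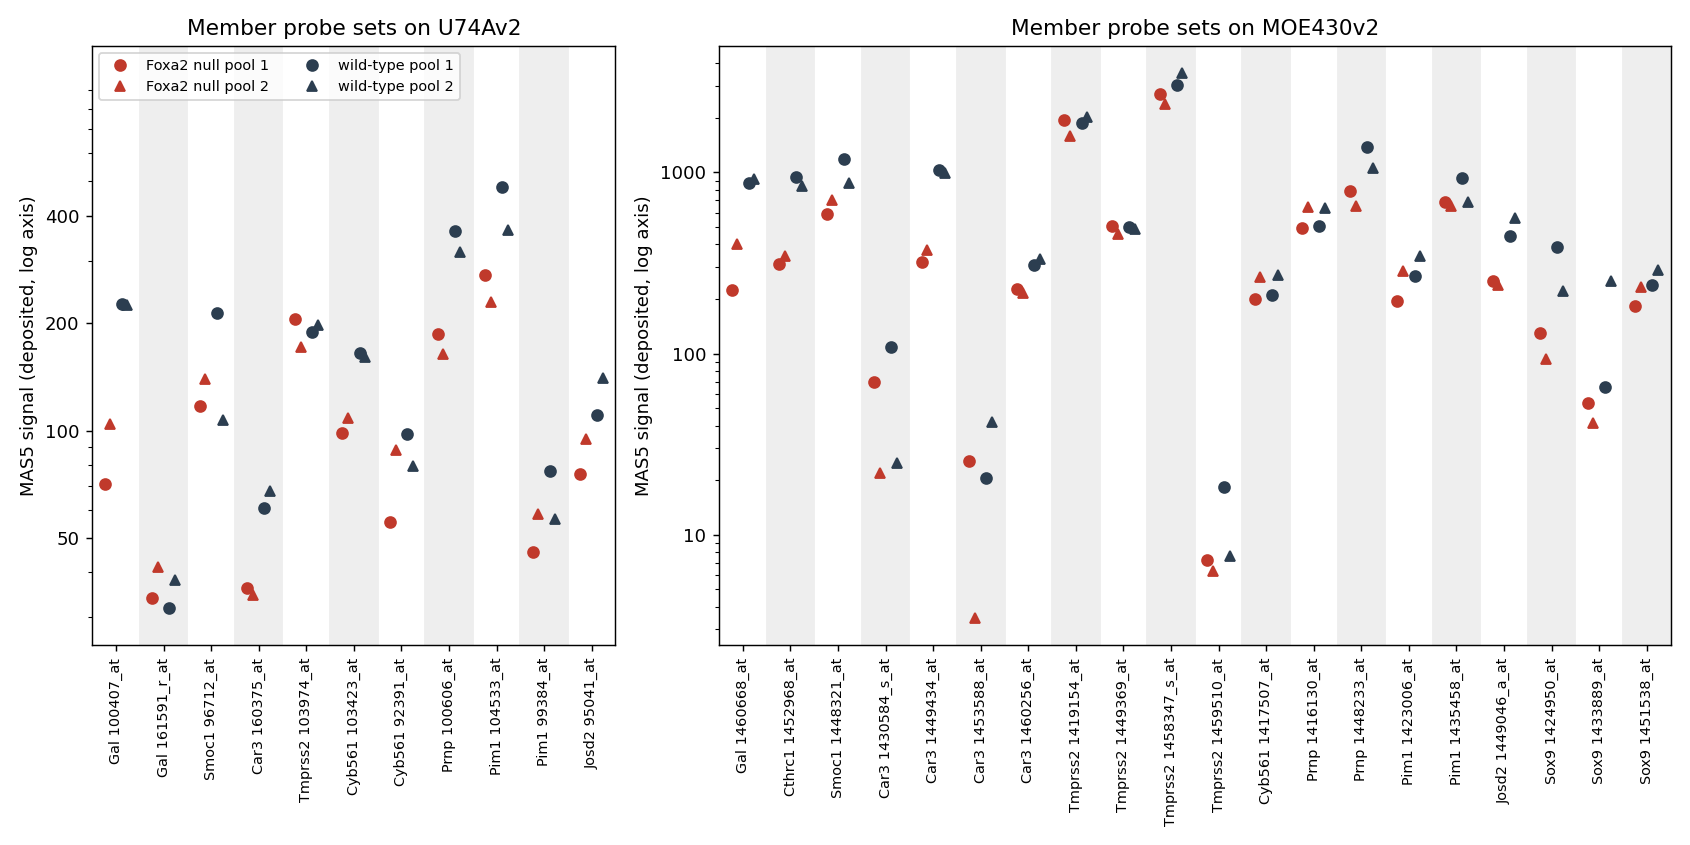
MAS5 signal (log axis, arbitrary units) of every member probe set in each pool, U74Av2 left and MOE430v2 right, 1 point per array, Foxa2 null in red and wild-type in dark blue. The mutant points of Gal 100407_at and 1460668_at, Cthrc1 1452968_at and Car3 1449434_at lie clear below the wild-type points, while those of Tmprss2 103974_at and Prnp 1416130_at lie among them.

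As a group, the members were lower in the mutant pools on both arrays, by amounts that ranged widely. Of the 11 U74Av2 probe sets, 10 had a difference below 0 and 6 had both mutant signals under both wild-type signals, against 21.4% of all U74Av2 probe sets tested. Of the 20 MOE430v2 probe sets, 13 were lower in all 4 pairings of a mutant and a wild-type array (12 of the 17 tested), again against 21.4% of all tested. None of the 31 was higher in all 4 pairings, which 18.6% of tested probe sets were on U74Av2 and 21.1% on MOE430v2. At an adjusted p under 0.05, 0 of 11 members were lower on U74Av2, where 0.173% of all probe sets were, and 2 of 17 were lower on MOE430v2, where 0.244% were. Members called higher numbered 0 on both arrays, where 0.104% and 0.19% of all were. At an unadjusted p under 0.05, 6 of 11 and 8 of 17 were lower (5.01% and 6.07% of all tested) and 0 were higher on either array. The median share left over the member probe sets was 67.8% on U74Av2 and 65.5% on MOE430v2, and it was 98.7% and 99.9% over all probe sets tested. The 3 MOE430v2 probe sets under the signal filter, 2 of Car3 and 1 of Tmprss2, were dim in both genotypes and were not tested.

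**Figure D2:**
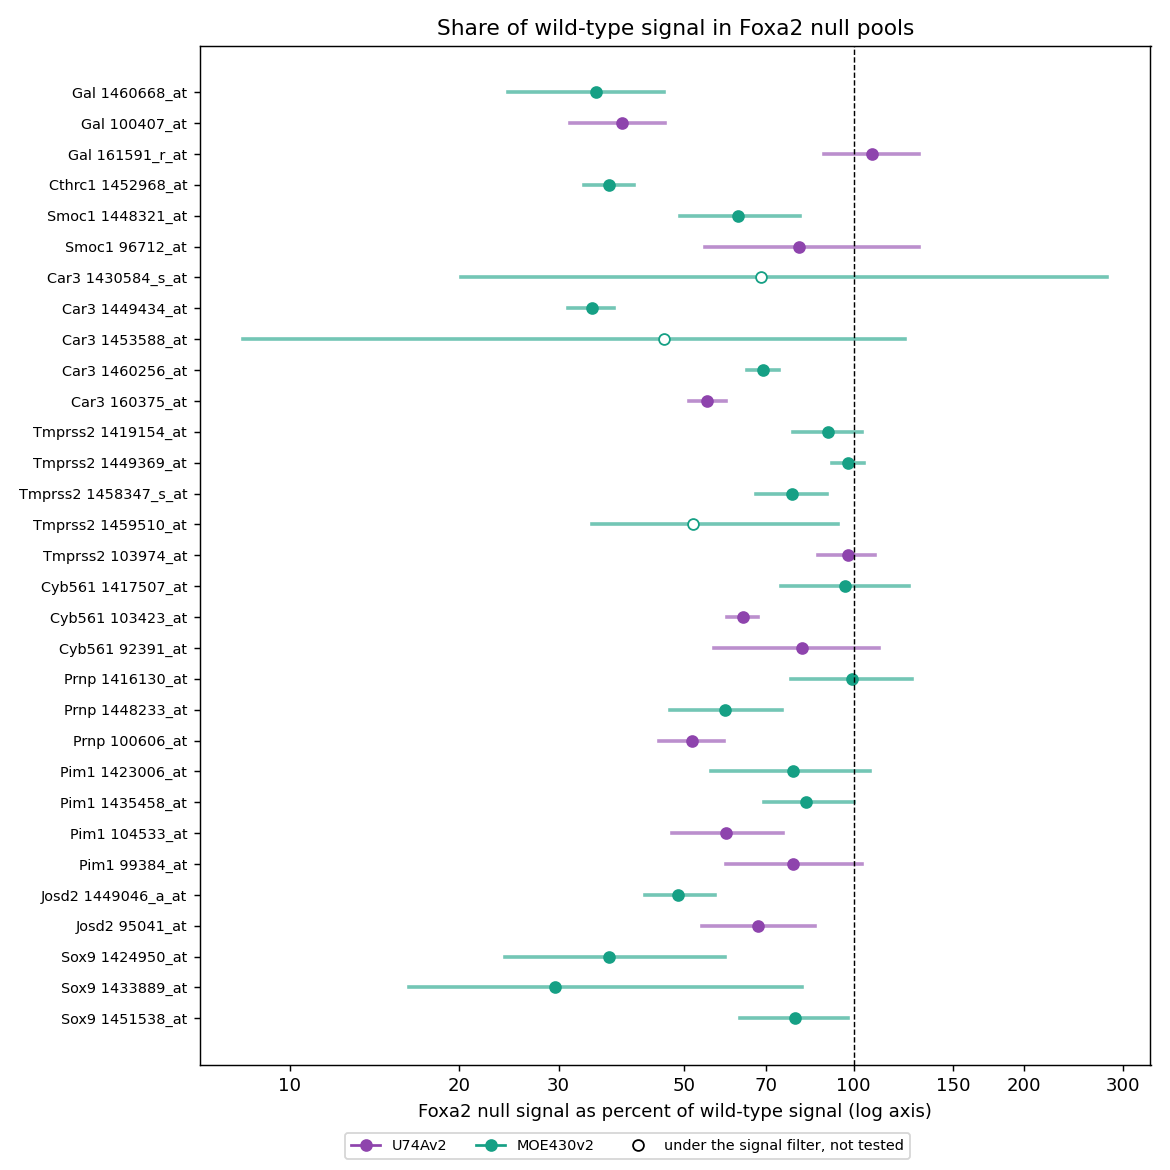
Mean Foxa2 null signal as a percentage of mean wild-type signal (log axis) for each of the 31 member probe sets, with bars from the lowest to the highest of the 4 ratios of one mutant to one wild-type array; open points were not tested. Points run from 29.6% (Sox9 1433889_at) to 108% (Gal 161591_r_at), and the dashed line marks 100%.

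Among the secreted products, Gal encodes the precursor of galanin, a neuropeptide that acts through G protein-coupled receptors. At 100407_at and 1460668_at, the 2 Gal probe sets where the genotypes lay apart, the shares left were nearly the same. Both arrays read the same extracts. With 100407_at, signals were 71.0 and 104.3 in Foxa2 null pools, against 226.4 and 225.6 in wild-type pools, which left 38.8% (31.4% to 46.2%). With 1460668_at, they were 223.2 and 401.8 in Foxa2 null pools, against 872.0 and 916.6 in wild-type pools, which left 34.9% (24.4% to 46.1%). On both arrays the wild-type pools were close together, the mutant pools were apart, and Foxa2 null pool 1 was the lowest. The third probe set, 161591_r_at, whose suffix marks probes picked under relaxed design rules, was dim and did not separate the genotypes, at 33.8 and 41.5 in Foxa2 null pools and 31.8 and 38.1 in wild-type pools (share left 108%).

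Neither 100407_at nor 1460668_at passed on its own array, with adjusted p = 0.0706 and 0.0550. The values of an extract were then averaged over both platforms, with 100407_at and 1460668_at only. In this average Gal fell by 1.49 (SE 0.22, 95% interval -1.98 to -1.003, limma adjusted p = 0.0134, n = 2 pools each) and stood at rank 12 of 5933 genes from the most negative. Without Foxa2 null pool 2, the higher of the mutant pools, the difference was -1.67 with adjusted p = 0.0144 on U74Av2 and -2.02 with adjusted p = 0.00483 on MOE430v2, and without Foxa2 null pool 1 it was -1.12 (adjusted p = 0.128) and -1.16 (adjusted p = 0.0590).

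The Gal promoter is shown because Gal had the lowest rank of the members on both platforms averaged and because its window was the one member window that held the letters AGGTGT, the core of the sequence that T binds. It covers the 250 bases before the RefSeq start on the minus strand (GRCm38.p6, chr19:3414545-3414794), 5′ to 3′, with both matches in capitals.
Gal promoter: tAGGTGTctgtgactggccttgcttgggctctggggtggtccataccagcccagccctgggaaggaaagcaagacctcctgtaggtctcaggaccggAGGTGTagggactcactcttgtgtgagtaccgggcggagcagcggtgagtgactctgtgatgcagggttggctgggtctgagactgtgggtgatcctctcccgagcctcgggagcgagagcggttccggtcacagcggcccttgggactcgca

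The matches lie 249 to 244 and 153 to 148 bases before the start. AGGTGT was found, on either strand, in 13.7% of 32851 RefSeq windows of 300 bases (250 before to 50 after a start), and the longer AGGTGTGA, which contains it, was in 1.28% of windows and in none of the 6 windows of members. Windows were at hand for 5 members: Gal, Josd2, Prnp, Tmprss2 and, with 2 starts, Pim1. A match to these letters is a description and was not tested as a binding site.

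Cthrc1, a secreted glycoprotein with a short collagen-like repeat that is known to act in Wnt signalling through the planar cell polarity branch, was measured on MOE430v2 only. Signals with 1452968_at were 312.9 and 343.4 in Foxa2 null pools, against 940.3 and 840.9 in wild-type pools. Replicates lay close in both genotypes, and 36.8% (33.3% to 40.8%) of the signal was left. Cthrc1 fell by 1.45 (SE 0.19, 95% interval -1.88 to -1.02, limma adjusted p = 0.0180). The call rested on each wild-type pool, with adjusted p = 0.108 when wild-type pool 1 was left out and 0.105 when wild-type pool 2 was, and it was 0.0519 with no filter on dim probe sets.

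Smoc1, a calcium-binding matrix protein of the SPARC family known in Xenopus as a BMP antagonist, showed a smaller difference that depended on the array. With 1448321_at, signals were 586.5 and 701.7 in Foxa2 null pools, against 1189.8 and 875.4 in wild-type pools (62.4% left, difference -0.68, SE 0.19, adjusted p = 0.208). With 96712_at, they were 116.9 and 139.7 in Foxa2 null pools, against 214.4 and 106.9 in wild-type pools. On U74Av2 the wild-type pools thus lay on either side of the mutant pools, and the difference of -0.24 (SE 0.31) turned to 0.26 without wild-type pool 1. Averaged over platforms the difference was -0.46 (SE 0.22, adjusted p = 0.354), and leaving out wild-type pool 1 gave -0.11, while leaving out wild-type pool 2 gave -0.81.

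Among the enzymes, Car3 encodes carbonic anhydrase 3, a cytosolic member of the family that hydrates CO2, best known from muscle, liver and fat and also a marker of the early mouse notochord. Signals with 1449434_at were 320.6 and 373.3 in Foxa2 null pools, against 1027.1 and 993.3 in wild-type pools, which left 34.3% (31.2% to 37.6%). Car3 fell by 1.56 there (SE 0.19, 95% interval -1.98 to -1.13, limma adjusted p = 0.0139), the clearest separation of any member probe set on MOE430v2 by adjusted p. With 160375_at on U74Av2, signals were 36.1 and 34.6 in Foxa2 null pools, against 60.7 and 67.7 in wild-type pools, and 55.1% was left. Both of these mutant signals lay below the median signal of their array. The groups did not overlap on this array either, although the difference of -0.86 (SE 0.28) had an adjusted p of 0.306.

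The 3 other Car3 probe sets on MOE430v2 left larger shares. With 1460256_at, signals were 227.6 and 215.8 in Foxa2 null pools, against 308.5 and 333.7 in wild-type pools (69.1% left, difference -0.54, adjusted p = 0.466). The untested 1430584_s_at, which may match several transcripts, had 69.9 and 22.0 in Foxa2 null pools and 109.1 and 24.8 in wild-type pools, and 1453588_at had 25.4 and 3.47 in Foxa2 null pools and 20.6 and 42.0 in wild-type pools. At those dim probe sets the pools of a genotype differed more than the genotypes did. Averaged over platforms, with 160375_at and 1449434_at only, Car3 fell by 1.21 (SE 0.18, adjusted p = 0.0161), at rank 25 of 5933 genes. The other Car3 probe sets did not enter this average. Without wild-type pool 2 that adjusted p was 0.0561, and that of 1449434_at was 0.0715 when wild-type pool 1 was left out and 0.0964 when wild-type pool 2 was.

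Tmprss2, a serine protease anchored in the cell membrane, kept nearly all of its signal at most probe sets. Signals with 103974_at were 206.1 and 171.4 in Foxa2 null pools, against 188.6 and 198.0 in wild-type pools, with the mutant pools on either side of the wild-type pools (97.6% left). On MOE430v2, 1419154_at had 1934.8 and 1583.9 in Foxa2 null pools, against 1871.2 and 2031.0 in wild-type pools (90.2% left), and 1449369_at had 506.9 and 454.2 in Foxa2 null pools, against 496.6 and 485.5 in wild-type pools (97.9% left). Both overlapped between genotypes. The probe set 1458347_s_at was lower in each mutant array, at 2713.1 and 2368.9 in Foxa2 null pools, against 3019.8 and 3527.4 in wild-type pools (77.6% left, difference -0.37, SE 0.12, adjusted p = 0.282). The dim 1459510_at, with 7.21 and 6.30 in Foxa2 null pools and 18.3 and 7.67 in wild-type pools, was not tested. Averaged over platforms, with 1458347_s_at as the MOE430v2 probe set, the difference was -0.20 (SE 0.13, 95% interval -0.49 to 0.09, adjusted p = 0.525), which bounds the decrease but does not show that none took place.

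Cyb561, a membrane cytochrome that carries electrons from ascorbate across the wall of secretory vesicles, differed between its probe sets. Signals with 103423_at were 98.7 and 108.7 in Foxa2 null pools, against 165.3 and 160.7 in wild-type pools (63.6% left, difference -0.65, SE 0.19, adjusted p = 0.251). With 92391_at they were 55.4 and 88.3 in Foxa2 null pools, against 97.8 and 79.7 in wild-type pools (81.0% left), and with 1417507_at on MOE430v2 they were 200.6 and 265.0 in Foxa2 null pools, against 211.7 and 270.0 in wild-type pools (96.7% left). The clear separation at 103423_at was therefore not seen at the gene's other probe sets, whose mutant and wild-type values overlapped. Averaged over platforms, with 103423_at and 1417507_at, the difference was -0.35 (SE 0.19, adjusted p = 0.436).

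Prnp encodes the prion protein, which is held at the cell surface by a lipid anchor. Signals with 100606_at were 187.2 and 164.1 in Foxa2 null pools, against 362.8 and 317.7 in wild-type pools (51.6% left, difference -0.95, SE 0.18, adjusted p = 0.101). With 1448233_at they were 787.0 and 652.4 in Foxa2 null pools, against 1378.0 and 1053.8 in wild-type pools (59.2% left, difference -0.76, SE 0.18, adjusted p = 0.135). In these probe sets pool 1 was the higher of either genotype and the genotypes did not overlap. The third, 1416130_at, showed no such gap, with 491.7 and 641.0 in Foxa2 null pools and 505.6 and 635.2 in wild-type pools (99.3% left, difference -0.02, 95% interval -0.53 to 0.48), and here pool 2 was the higher of either genotype.

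Averaged over platforms, with 100606_at and 1448233_at, Prnp fell by 0.86 (SE 0.15, 95% interval -1.19 to -0.52, limma adjusted p = 0.0259), at rank 90 of 5933 genes. Without wild-type pool 1 the adjusted p was 0.0906. With Gal and Car3 it was 1 of 3 members called among the 8 measured on both platforms, where 1.06% of all genes were called lower and 1.35% higher, and 0 members were higher. At an unadjusted p under 0.05, 5 of the 8 were lower (Gal, Car3, Prnp, Josd2 and Pim1), against 7.84% of all genes.

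Among proteins of the cell interior, Pim1 is a serine/threonine kinase known for promoting cell survival and growth. Signals with 104533_at were 273.0 and 229.2 in Foxa2 null pools, against 481.8 and 364.6 in wild-type pools, and 59.3% was left (difference -0.74, SE 0.19, adjusted p = 0.197). The groups were separate at this probe set. On MOE430v2, 1435458_at had 683.1 and 648.0 in Foxa2 null pools, against 933.6 and 683.2 in wild-type pools (82.3% left), where Foxa2 null pool 1 and wild-type pool 2 were level. The dimmer 99384_at had 45.7 and 58.3 in Foxa2 null pools, against 76.8 and 56.4 in wild-type pools, and 1423006_at had 194.1 and 286.0 in Foxa2 null pools, against 267.4 and 347.3 in wild-type pools. Each left 78.1%, and in both the genotypes overlapped. Averaged over platforms, with 104533_at and 1435458_at, the difference was -0.51 (SE 0.16, adjusted p = 0.147).

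Josd2, a deubiquitinating enzyme with a Josephin domain, was lower in all 4 pairings on either array. With 1449046_a_at, signals were 251.5 and 239.1 in Foxa2 null pools, against 443.1 and 560.3 in wild-type pools (48.9% left, difference -1.03, SE 0.24, adjusted p = 0.135). With 95041_at they were 75.6 and 94.5 in Foxa2 null pools, against 110.7 and 140.2 in wild-type pools (67.8% left, difference -0.56, SE 0.23, adjusted p = 0.463). Wild-type pool 2 was the highest on both arrays. Averaged over platforms the difference was -0.80 (SE 0.19, adjusted p = 0.0695). It ran from -0.97 to -0.62 when 1 pool at a time was left out.

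The Josd2 window and a stretch of one Pim1 window are shown because they were the member windows that held TGTTTAC, the core of the sequence that forkhead factors such as Foxa2 bind. It was searched on both strands, appears here as its reverse complement in capitals, and was in 2 of 6 member windows and in 3.65% of all 32851. The Josd2 sequence is the 250 bases before the RefSeq start on the plus strand (GRCm38.p6, chr7:44467730-44467979), with the match 244 to 238 bases before it. The Pim1 stretch surrounds a match 70 to 64 bases before the downstream of its 2 RefSeq starts on the plus strand of chromosome 17.
Josd2 promoter: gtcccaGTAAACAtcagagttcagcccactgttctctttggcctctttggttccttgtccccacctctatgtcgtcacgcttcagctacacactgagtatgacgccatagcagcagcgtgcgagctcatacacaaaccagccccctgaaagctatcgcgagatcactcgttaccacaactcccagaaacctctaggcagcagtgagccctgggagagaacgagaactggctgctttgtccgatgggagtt
Pim1 promoter stretch: cccaaagtttGTAAACAggaatcacgt

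The variant TGTTTGC was in 0 of 6 member windows and in 5.07% of all. With all pools in the fit, neither Josd2 nor Pim1 passed the adjusted threshold, and Gal, whose window held neither forkhead form, did on both platforms averaged. Nothing about binding follows from this.

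Sox9, an HMG-box transcription factor that is needed to maintain the notochord and to form cartilage, was measured on MOE430v2 only, and its 3 probe sets disagreed about the wild-type pools. With 1424950_at, signals were 130.6 and 92.8 in Foxa2 null pools, against 385.7 and 220.5 in wild-type pools (36.9% left, difference -1.40, SE 0.40, adjusted p = 0.214). With 1433889_at they were 53.0 and 41.1 in Foxa2 null pools, against 65.3 and 252.9 in wild-type pools (29.6% left, 16.3% to 81.1%; difference -1.44, SE 0.76, adjusted p = 0.502). Wild-type pool 1 was the higher at the first and wild-type pool 2 at the second, so the mean share at 1433889_at rests on wild-type pool 2, and the difference was -0.49 without it. With 1451538_at they were 181.8 and 233.8 in Foxa2 null pools, against 239.2 and 289.5 in wild-type pools (78.6% left, difference -0.35, SE 0.30, adjusted p = 0.685). All 3 were lower in each mutant array than in either wild-type array, as were 21.4% of all MOE430v2 probe sets tested, and none passed the threshold. The 3 probe sets read the same 4 extracts and are not separate evidence.

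Genes of cartilage and notochord matrix that Sox9 is known to activate were read as a list of 11. On MOE430v2, 9 were tested, 5 were below 0 with a median of -0.47 (median of all tested -0.00), 0 passed the adjusted threshold and 2 were lower at an unadjusted p under 0.05 (6.07% of all). Those were Hapln1, a link protein that binds hyaluronan, with 145.5 and 131.3 in Foxa2 null pools, against 468.1 and 228.3 in wild-type pools (difference -1.24, SE 0.39, adjusted p = 0.245), and Col2a1, the chain of type II collagen, with 482.4 and 555.0 in Foxa2 null pools, against 799.7 and 629.5 in wild-type pools (difference -0.47, SE 0.20, adjusted p = 0.391). The 4 matrix genes tested on U74Av2 had differences from -0.26 (Col11a1) to 0.76 (Col9a1), 0 passed the adjusted threshold, and 1, Col9a1, was higher at an unadjusted p under 0.05 (5.01% of all). On MOE430v2 Col9a1 had a difference of -0.52, so its direction depended on the probe set. The MOE430v2 genes above 0 were Col9a3 (0.25), Comp (0.47), Matn3 (0.66) and Col11a2 (1.38). Among them, only Comp was higher in each mutant array than in either wild-type array. Col2a1 and Hapln1 were under the filter on U74Av2 and were not tested there. Their dim U74Av2 signals went opposite ways, with Col2a1 higher (share left 238%) and Hapln1 lower (28.5%) in each mutant array.

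**Figure D3:**
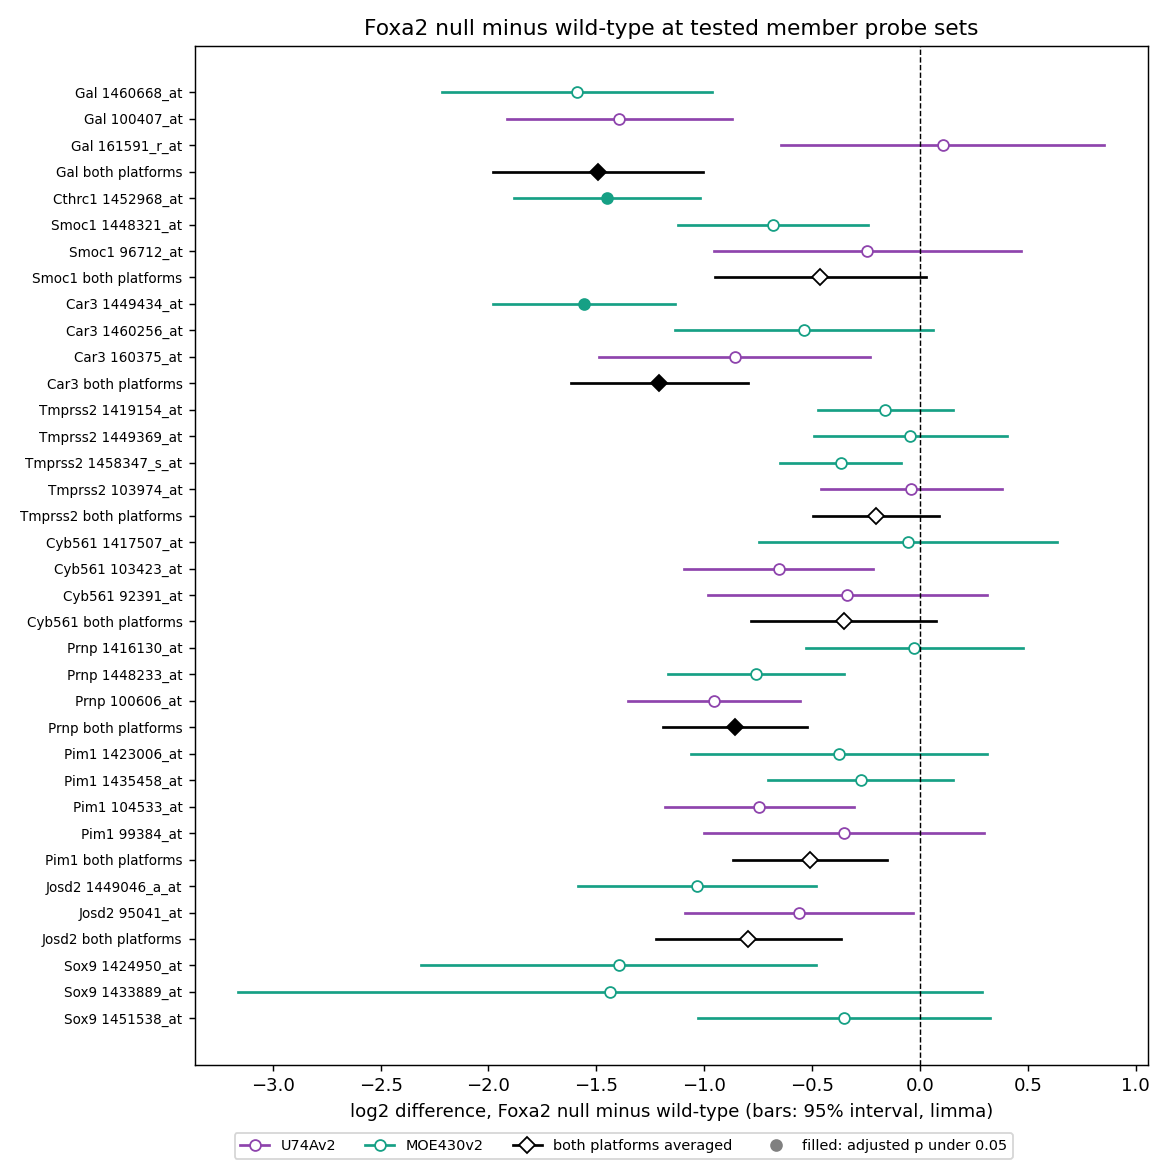
Log2 difference, Foxa2 null minus wild-type, with its 95% limma interval for each tested member probe set and for each gene averaged over both platforms; filled symbols have an adjusted p under 0.05. Filled are Cthrc1 1452968_at, Car3 1449434_at and the averages of Gal, Car3 and Prnp, and Tmprss2 lies nearest to 0 of the averaged genes.

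The members lay near the regulators and signals of the node and notochord in the size of their difference, with each gene read at its brightest probe set over the 4 arrays. On U74Av2 the members had a median of -0.70 over 8 genes and the regulators -1.02 over 10, and on MOE430v2 the medians were -0.72 over 10 members and -0.69 over 15 regulators, against -0.02 and -0.00 over all probe sets tested. Of 20 regulators listed, 12 were matched to a probe set on U74Av2 and 17 on MOE430v2. T was on the list but was not matched on either array, so both medians leave it out. The study itself reports T as reduced on both arrays. Of the regulators, 8 of 10 and 12 of 15 were below 0 and 1 was lower at the adjusted threshold on either array (0.173% and 0.244% of all tested). On U74Av2 it was Foxd4, a forkhead factor, with 18.4 and 15.3 in Foxa2 null pools, against 114.7 and 116.6 in wild-type pools (difference -2.79, adjusted p = 0.0164). On MOE430v2 it was Foxa1, the paralogue of Foxa2, with 206.9 and 182.5 in Foxa2 null pools, against 577.6 and 548.8 in wild-type pools (difference -1.54, adjusted p = 0.0336). The regulators ran from -3.70 (Foxd4, 155.9 and 23.1 in Foxa2 null pools, adjusted p = 0.0770) to 0.87 (Lhx1, a LIM homeobox factor, adjusted p = 0.373) on MOE430v2. On U74Av2 Lhx1 had a difference of 0.08 and the genotypes overlapped. The regulator list holds Foxa2 itself, and both lists hold genes that the study had listed as reduced on these arrays. The range of either list thus depends in part on how its genes were chosen. Whether the members and the regulators differ was not tested.

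Close relatives of the members, such as other carbonic anhydrases, Pim kinases, SPARC-family proteins and other Sox factors, were read to see whether a whole family moved. Their medians were -0.24 over 14 genes on U74Av2 and -0.16 over 23 genes on MOE430v2, with 10 and 14 below 0, and 0 passed the adjusted threshold on either array. At an unadjusted p under 0.05, 2 were lower and 1 higher on U74Av2 (5.01% each of all) and 3 were lower and 2 higher on MOE430v2 (6.07% and 6.04%). Beside Car3, the cytosolic anhydrase Car2 had 3137.2 and 3517.5 in Foxa2 null pools, against 2543.3 and 2489.1 in wild-type pools (difference 0.40, SE 0.11, adjusted p = 0.207), and 540.2 and 635.7 in Foxa2 null pools, against 366.2 and 433.6 in wild-type pools, on U74Av2 (difference 0.56, SE 0.16, adjusted p = 0.253). Car2 thus lay above both wild-type arrays in every mutant array, and Car3, at its tested probe sets, lay below. The other anhydrases tested on MOE430v2 ran from -1.13 (Car8, adjusted p = 0.549) to 0.17 (Car12, adjusted p = 0.829). Among them Car14 was lower in each mutant array on MOE430v2 (difference -0.31, adjusted p = 0.349). On U74Av2 its genotypes overlapped (difference 0.003, adjusted p = 0.995). Car12 was lower in each mutant array on U74Av2 (difference -0.41, adjusted p = 0.659), so its direction depended on the array. Car2 thus does not stand for its family. Beside Pim1, Pim2 had 5192.8 and 6960.0 in Foxa2 null pools, against 3672.2 and 5153.5 in wild-type pools (difference 0.47, SE 0.17, adjusted p = 0.309). On U74Av2 the genotypes overlapped at Pim2, with 643.7 and 968.9 in Foxa2 null pools, against 519.6 and 743.0 in wild-type pools (difference 0.35, adjusted p = 0.695). Beside Smoc1, the matrix protein Sparcl1 had 145.0 and 17.9 in Foxa2 null pools, against 292.7 and 239.9 in wild-type pools (difference -2.35, SE 0.86, adjusted p = 0.328). Beside Tmprss2, its listed relative Hpn was lower in each mutant array on both platforms. Its difference was -0.64 (adjusted p = 0.384) on MOE430v2 and -0.56 (adjusted p = 0.498) on U74Av2.

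**Figure D4:**
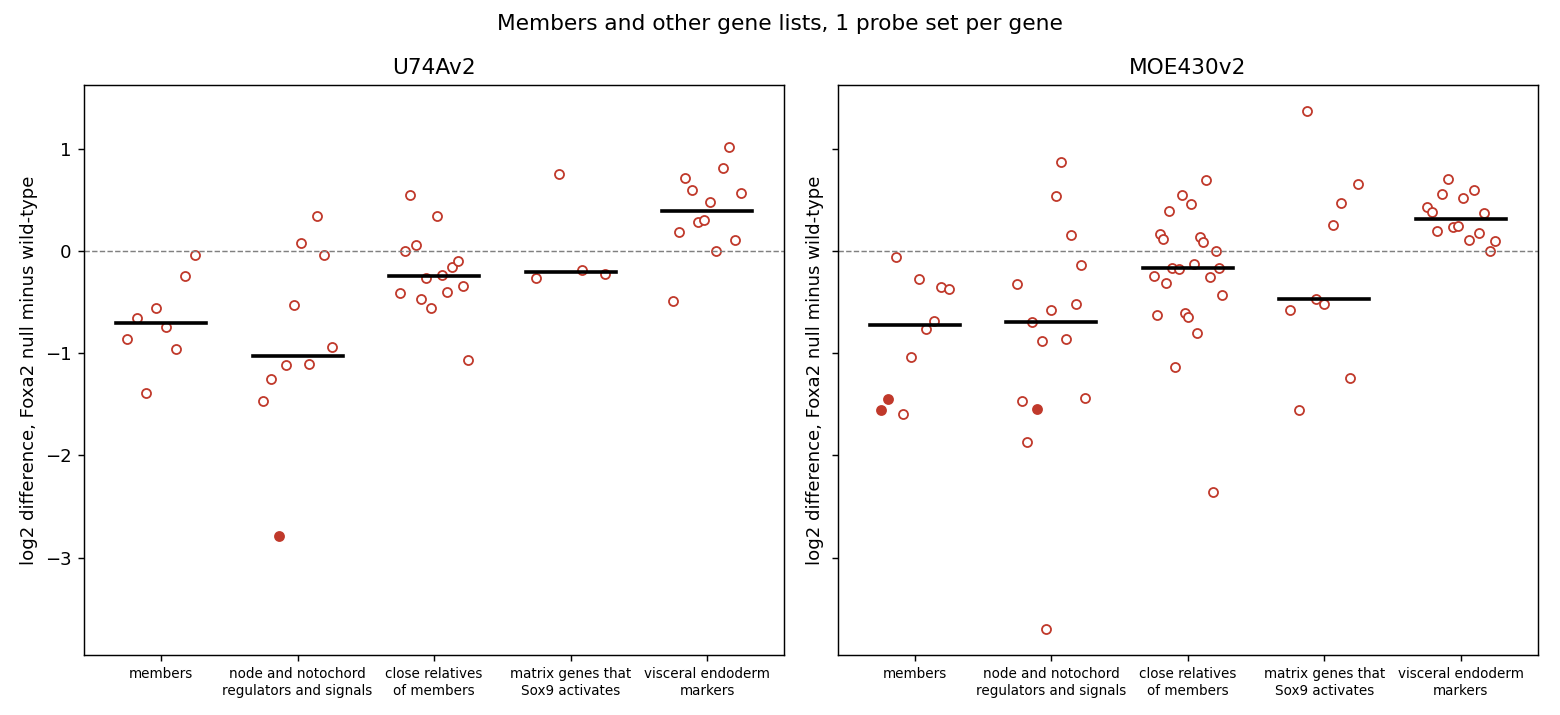
Log2 difference, Foxa2 null minus wild-type, of members and of 4 other gene lists, 1 probe set per gene, U74Av2 left and MOE430v2 right; each point is a gene, black lines are medians and filled points have an adjusted p under 0.05. The medians of members (-0.70 and -0.72) lie below 0 beside those of node and notochord regulators (-1.02 and -0.69), and those of visceral endoderm markers (0.39 and 0.31) lie above 0.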

How the data were processed

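The authors deposited 1 linear MAS5 intensity for each probe set, brought to a common target on all arrays of a platform. The trimmed mean was 150 on every U74Av2 and 500 on every MOE430v2 array, and the loess step that the methods describe for MOE430v2 is not in the deposited values. Signals were taken to log2 with a floor of 0.1, U74Av2 as scaled and MOE430v2 after cyclic loess (R 4.3.3 and limma 3.58.1). Control probe sets and the 30% with the lowest mean log2 signal were left out, which left 8695 and 31526. Genotypes were compared by limma's lmFit and eBayes (trend = TRUE) in a two-sided test, and p-values were adjusted by Benjamini-Hochberg over all probe sets tested. For 5933 genes on both platforms, the single-gene probe set with the highest mean log2 signal on each platform stood for the gene. Its log2 values were centred on either platform and then averaged per extract. Other probe sets of a gene did not enter these averages. The smallest p of an exact permutation test is 0.333 for 2 pools against 2. By the methods the pools are biological replicates. The p-values rest on the spread between 2 pools per genotype, which eBayes draws toward that of probe sets of similar signal. They therefore rest in part on variance borrowed from other probe sets. Every member probe set is named, other genes as the leading ones of their list or relatives of a member. Members and lists were chosen with earlier results of these data known. Gene names come from GEO's array annotation (10833 and 34945 probe sets with 1 gene, 396 and 932 with several, 1193 and 9160 with none). Promoter windows come from RefSeq (GRCm38.p6). The fit was tested on simulated data. MAS5 change calls and probe-level tests were not analysed here.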

Additional observations from a re-analysis of the deposited data

How the results depend on the processing

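With 2 pools per genotype, calls rest on limma's intensity trend. Without the trend, 0 probe sets were called lower on U74Av2 (15 as reported), 0 on MOE430v2 (77) and 2 genes over both platforms (63), with 0 members on MOE430v2 (2) and 0 over both platforms (3). With no filter on dim probe sets, 3 were lower on U74Av2 and 27 on MOE430v2, with 1 member on MOE430v2. With the lowest 50% left out, 25 and 145 were lower, with 2 members on U74Av2 (0 as reported). An offset of 50 gave 118 on MOE430v2 and 1 member on U74Av2, and median centring gave 1 member on U74Av2. The sample labels link same-numbered pools by that number only, and whether they share anything else was not tested. The correlation of their deviations was 0.111 on U74Av2 and 0.0851 on MOE430v2. A replicate block in the fit gave 129, 802 and 240 lower, with 3, 7 and 5 members. Leaving out 1 pool at a time, each arm left with 1 pool being assumed to vary like the others, gave 11 to 29 on U74Av2, 13 to 153 on MOE430v2 and 30 to 134 over both platforms, with 0 to 1, 0 to 3 and 2 to 4 members. Adjusted p over the alternatives ran from 3.57e-07 to 0.448 for Car3 1449434_at, 3.35e-06 to 0.448 for Cthrc1 1452968_at, 0.000504 to 0.296 for Gal 100407_at and 1.78e-06 to 0.462 for Gal 1460668_at. Over both platforms it ran from 1.51e-07 to 0.155 for Gal, 0.000184 to 0.119 for Car3 and 0.000171 to 0.168 for Prnp.

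Differences that changed sign when 1 pool was left out ranged from -0.67 to 0.00021 at Cyb561 92391_at, -0.042 to 0.25 at Gal 161591_r_at, -0.17 to 0.093 at Tmprss2 103974_at, -0.75 to 0.26 at Smoc1 96712_at, -0.24 to 0.13 at Cyb561 1417507_at, -0.22 to 0.17 at Prnp 1416130_at and -0.12 to 0.034 at Tmprss2 1449369_at. Median centring turned Tmprss2 103974_at to 0.0023, and no other member difference changed sign under the remaining alternatives. With 50 added to every signal, the share left was 74.7% at Car3 160375_at, 72.2% at Cyb561 103423_at, 49.9% at Gal 100407_at, 57.8% at Prnp 100606_at, 73.2% at Car3 1460256_at, 40.2% at Cthrc1 1452968_at, 53.5% at Josd2 1449046_a_at, 45.8% at Sox9 1424950_at, 46.4% at Sox9 1433889_at and 90.1% at Tmprss2 1459510_at, and after cyclic loess it was 57.2% at Car3 160375_at. The other 51 recomputed shares moved by less than the spread between pools. The cause of these changes was not tested.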

Other observations

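The receptors of galanin were looked at after the values of Gal had been seen. Galr2, a receptor that signals mainly through phospholipase C, had signals of 17.4 and 31.3 in Foxa2 null pools, against 127.6 and 117.6 in wild-type pools, with 1422942_at on MOE430v2, so that 19.9% was left. The probe set was under the filter on dim signals. In the fit without that filter its difference was -2.37 (SE 0.69, limma adjusted p = 0.316). On U74Av2 the Galr2 probe set 99430_at was at 12.7 and 13.9 in Foxa2 null pools, against 13.3 and 20.2 in wild-type pools, which did not separate the genotypes.

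Galr1, the receptor that lowers cyclic AMP, had 183.6 and 146.4 in Foxa2 null pools, against 228.7 and 273.6 in wild-type pools, with 1450568_at (65.7% left, adjusted p = 0.592 in the same fit). With 1441329_at it had 17.2 and 8.38 in Foxa2 null pools, against 47.7 and 54.1 in wild-type pools. That probe set was under the filter on dim signals, and without the filter its adjusted p was 0.469. Galr1 had 9.82 and 52.8 in Foxa2 null pools and 10.4 and 44.1 in wild-type pools with 1427704_a_at, also under the filter, where the pools of a genotype differed more than the genotypes. On U74Av2 the Galr1 probe set 99837_at had 17.7 and 30.8 in Foxa2 null pools, against 24.3 and 32.1 in wild-type pools. There the genotypes overlapped (86.0% left, adjusted p = 0.924 in the fit without the filter). No probe set matched Galr3.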
